A study of Arabidopsis thaliana with 6 samples.

Results

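The late embryogenesis abundant (LEA) protein and dehydrin family of *Arabidopsis thaliana* was described at 51 loci, which fall into 9 LEA groups. A locus was a member when it belongs to this family, and its probes were found by the locus code in the array annotation. The family was picked for description from the earlier comparison of *hy5* with wild type on these arrays, so the differences between genotypes below are a description of the members and not independent evidence about them. All 51 loci have at least 1 probe, among 29004 loci represented on the array, and 44 of the 51 were bright enough to be compared, among 21590 genes. The samples were seedlings of cultivar Col grown for 3 days under continuous white light on medium without sucrose, 3 of wild type (WT) and 3 of a *hy5* null mutant, a T-DNA insertion line, with no other treatment. HY5 is a bZIP transcription factor that promotes light-grown development, and the mutant is represented by this 1 allele.

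LEA proteins are mostly small, very hydrophilic and largely unfolded in solution. They gather late in seed maturation, when the embryo loses its water, and many are made again in leaves and roots under drought, salt, cold or abscisic acid, where they are thought to protect membranes and enzymes. After germination the seed-type transcripts normally decline as the seedling loses its tolerance of drying. From background knowledge, 25 loci were treated as seed-type, 10 as vegetative stress-type, 4 as both and 12 as not assigned.

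Signals were read from one-color Agilent arrays, and each value below is a relative signal, that is, the background-subtracted intensity divided by the 75th percentile of its array. The divisor ran from 487 to 558 in WT and from 981 to 1057 in *hy5* (intensity), 67.0% to 71.2% and 75.4% to 78.7% of spots were well above background, and no spot was saturated. The lowest relative signal well above background was 0.0120 to 0.0180 in WT and 0.00508 to 0.00598 in *hy5*, so a dim transcript could be measured at a lower relative signal in *hy5*. *HY5* itself (AT5G11260) was at 1.32, 1.38 and 1.24 in WT and at 0.0217, 0.0283 and 0.0169 in *hy5*. WT was hybridized on 1 slide and *hy5* on another, so slide and genotype cannot be told apart, and neither the labels nor the methods say whether replicates were separate plant samples, so the p-values may measure technical spread only. In RNA of whole seedlings, fewer cells of a type and less RNA per cell cannot be told apart either.

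Most members compared were higher in *hy5*, 21 of the 28 called rises being those of seed-type genes. Of the 44 genes compared, 28 were called higher in *hy5* (limma, adjusted p under 0.05 over all 21590 genes and at least 2-fold), 1 was called lower and 15 were not called. Among all genes compared, 6.55% were called higher and 4.84% lower. The median log2 difference (*hy5* minus WT) was 2.54 over the 44 members and -0.0044 over all genes. All 3 *hy5* arrays lay above all 3 WT arrays for 31 members, against 30.8% of all genes, and below them for 5 members, against 31.7% of all genes. A gene was compared when all 3 arrays of 1 genotype were well above background, which lets in a dim gene through the genotype where it is high, and 8 of the 44 entered in this way. For 36 members each of the 6 arrays passed the background limit, and of these 22 were called higher, with a median of 2.96. Among all genes that passed on all 6 arrays, 945 of 19647 were called higher, with a median of -0.031. The methods' t-test after Benjamini-Hochberg adjustment called 14 of the 28 higher.

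By type, 21 of the 22 seed-type genes compared were called higher, with a median log2 difference of 3.54 and a range of 0.39 to 5.18. Of the 10 vegetative stress-type genes, 2 were called higher, with a median of 0.12 and a range of -0.78 to 2.86. All 4 genes known from both seeds and stressed leaves were called higher, with a median of 3.31. Of the 8 genes not assigned, 1 was called higher and 1 lower, with a median of 0.044. The medians of the seed-type and vegetative stress-type genes were 3.42 apart on the log2 scale, a difference that was not tested because the lists were drawn up with results known. Where each of the 6 arrays passed the background limit, 16 of 17 seed-type genes and 1 of 8 vegetative stress-type genes were called higher, with medians of 4.09 and -0.090. Of all genes passing that limit, 945 of 19647 were called higher, with a median of -0.031. With normexp, a background model that adds an offset of 50 to every spot, the seed-type and stress-type medians were 2.21 and -0.040. The offset is equal on all arrays while the divisor was larger in *hy5*, so normexp lowers the *hy5* minus WT difference of dim genes. Markers of seed reserves moved with the seed-type genes. Of 12 such genes, encoding cruciferins, albumins and oleosins, 11 were called higher, with a median of 2.13 and a range of 0.69 to 3.66. Of these, 4 missed the background limit on at least 1 WT array, the other 8 were all called higher with a median of 2.11, and with normexp 5 of the 12 were called higher, with a median of 0.73. Their part in the result was not tested.

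**Figure D1:**
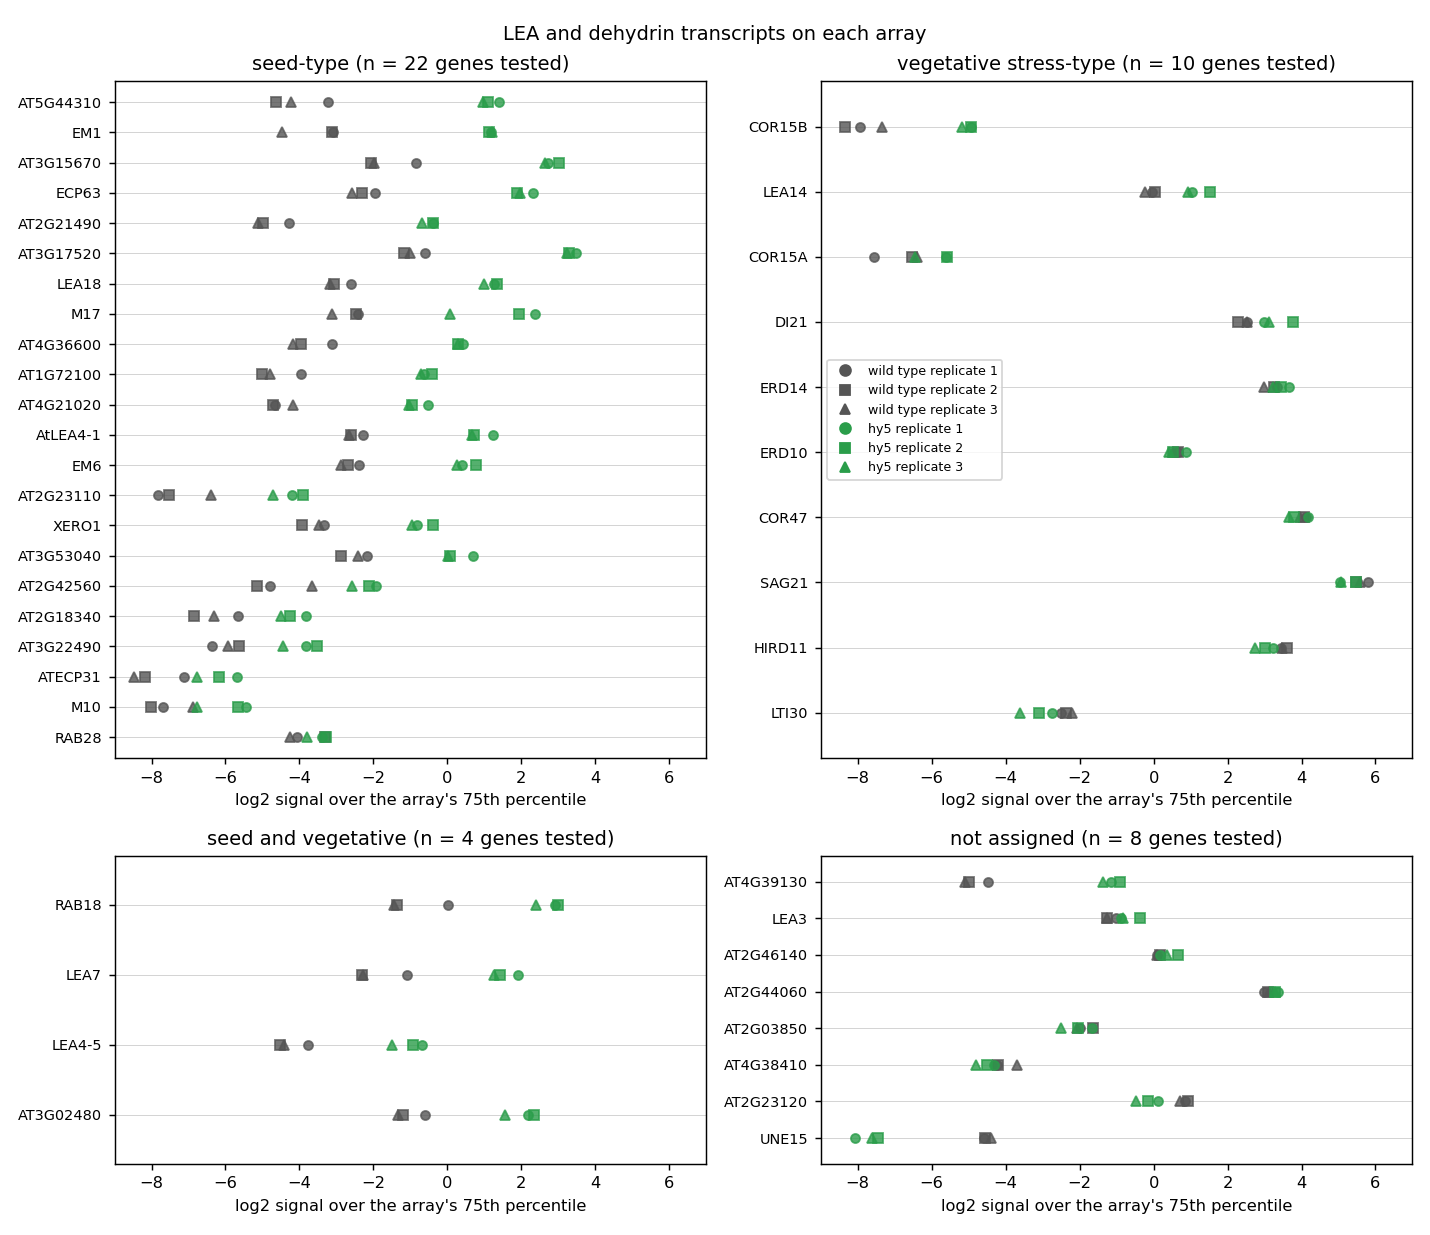
Log2 relative signal (x axis, log2 of signal over the 75th percentile of the array) of the 44 members compared, 1 row a gene, in 4 panels by type; gray points are WT arrays, green points *hy5* arrays, and the point's shape gives the replicate. The green points lie to the right of the gray ones in 21 of 22 seed-type rows, while 5 of the 10 vegetative stress-type rows overlap.

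The largest group, LEA_4, holds helical, alanine-rich proteins that protect enzymes and membranes on drying. It has 18 loci, of which 16 were compared, 13 called higher and 1 lower, with a median of 3.25. All 10 of its seed-type members were called higher, with a median of 4.04. AT5G44310 had the largest difference of the whole family. Its relative signal was 0.107, 0.0404 and 0.0537 on the 3 WT arrays and 2.62, 2.15 and 1.96 on the 3 *hy5* arrays. The genotypes did not overlap, and the highest array of each was replicate 1. The log2 difference was 5.18 (SE 0.326), which is 36.3-fold. The other seed-type members of the group were AT3G15670 with a log2 difference of 4.43, *ECP63* (AT2G36640), named after a protein of embryogenic carrot cells, with 4.33, AT3G17520 with 4.26, AT4G36600 with 4.09, AT1G72100 with 4.0, AT4G21020 with 3.69, AT3G53040 with 2.76, AT2G42560 with 2.32 and AT2G18340 with 2.07. For each of these 9 genes all *hy5* arrays lay above all WT arrays, as for 30.8% of all genes compared. AT2G42560 was no longer called with normexp (0.87). AT2G18340 was not well above background on any WT array (measured mean log2 difference as given, limma adjusted p = 0.0011). With its WT signals raised to at least the lowest signal well above background on each array (the WT limit), its rise was 3.56-fold. That limit is not specific to its probe, so this is not a strict minimum. With every signal under 0.0180 raised to that value (a common floor), its log2 difference was 1.55. With normexp its sign turned (-0.11).

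The Em proteins of group LEA_5 are among the most hydrophilic proteins of the dry seed, and EM6 is known to slow the loss of water from the maturing seed. *EM1* (AT3G51810) read 0.117, 0.115 and 0.0454 in WT and 2.25, 2.20 and 2.30 in *hy5*. Its WT replicate 3 was low, its *hy5* arrays were close to each other, and the genotypes did not overlap. The log2 difference was 4.73 (SE 0.338), or 26.6-fold. A second, dimmer *EM1* probe gave 1.06, and it was not well above background on any WT array. *EM6* (AT2G40170, listed as *GEA6*) read 0.191, 0.156 and 0.137 in WT and 1.31, 1.69 and 1.21 in *hy5*. Every *hy5* array was above every WT array, at a log2 difference of 3.12 (SE 0.168), or 8.72-fold. *EM1* and *EM6* are close copies, and signal shared between their probes was not tested.

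Group LEA_1 contains proteins that protect enzymes in vitro, and all 3 of its members were called higher. *LEA18* (AT2G35300) read 0.163, 0.119 and 0.111 in WT and 2.40, 2.55 and 1.99 in *hy5*, a log2 difference of 4.16 (SE 0.167). *LEA4-5* (AT5G06760), which is also induced in drying leaves and roots, read 0.0734, 0.0436 and 0.0471 in WT and 0.620, 0.523 and 0.353 in *hy5*, a log2 difference of 3.19 (SE 0.257). In neither gene did the genotypes overlap, and WT replicate 1 was the highest WT array in both. The third member, *AtLEA4-1* (AT1G32560), had a difference of 3.39.

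The AtM pair encodes small seed proteins. *M17* (AT2G41260) read 0.188, 0.182 and 0.114 in WT and 5.22, 3.81 and 1.05 in *hy5*. The *hy5* arrays were all above WT but uneven, with replicate 3 well below the other two. The log2 difference was 4.13 with the widest SE of the family, 0.547, and the call was lost with the methods' t-test. *M10* (AT2G41280) read 0.00483, 0.00389 and 0.00845 in WT, where no array was well above background, and 0.0231, 0.0198 and 0.00908 in *hy5*. The genotypes were barely apart, with *hy5* replicate 3 next to WT replicate 3. The measured log2 difference was 1.57 (SE 0.397, limma adjusted p = 0.013), and the rise was 1.10-fold against the WT limit. With the common floor the log2 difference was 0.17 and *M10* was not called. The call on *M10* was lost without *hy5* replicate 1 (log2 difference 1.31, adjusted p = 0.050) or *hy5* replicate 2 (1.42, adjusted p = 0.053), and with normexp its sign turned (-0.59).

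The 4 genes known from both seeds and stressed leaves were all higher in *hy5*. *RAB18* (AT5G66400), a dehydrin widely used as a marker of the abscisic acid response, read 1.02, 0.392 and 0.368 in WT and 7.46, 7.97 and 5.23 in *hy5*. WT replicate 1 stood above the other WT arrays, and the genotypes did not overlap. The log2 difference was 3.68 (SE 0.380), or 12.8-fold, and its 4 probes ranged from 2.29 to 3.68. *LEA7* (AT1G52690) had a difference of 3.42 and AT3G02480 one of 3.07.

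Dehydrins carry lysine-rich segments that bind membranes, and this group held members at both ends. Of 10 dehydrins compared, all well above background on all 6 arrays, 4 were called higher and 6 were not called, with a median log2 difference of 0.12. The largest rise was that of AT2G21490, a seed dehydrin, which read 0.0515, 0.0318 and 0.0288 in WT and 0.766, 0.763 and 0.626 in *hy5*. No array of one genotype reached the other, and the log2 difference was 4.31 (SE 0.217), or 19.8-fold. *XERO1* (AT3G50980), a dehydrin of the dry seed, read 0.0999, 0.0660 and 0.0905 in WT and 0.564, 0.760 and 0.515 in *hy5*. It was also apart on every array, with a log2 difference of 2.84 (SE 0.197). Besides these and *RAB18*, AT4G39130, a dehydrin gene of no assigned type, had a log2 difference of 3.72 (SE 0.188).

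The stress dehydrins of leaves and roots behaved otherwise, and none of the 5 was called. *COR47* (AT1G20440), induced by cold and drought, read 17.2, 16.8 and 15.6 in WT and 18.1, 14.0 and 12.6 in *hy5*. The genotypes overlapped, with the highest array in *hy5*, and the log2 difference was -0.17 (95% interval -0.50 to 0.17). Its 3 probes ranged from -0.17 to 0.63. *ERD10* (AT1G20450), an acidic dehydrin with chaperone activity in vitro, read 1.58, 1.57 and 1.45 in WT and 1.83, 1.44 and 1.33 in *hy5*. Here too the arrays overlapped, and the difference of -0.01 had an interval of -0.32 to 0.29. *ERD14* (AT1G76180), a related acidic dehydrin, read 10.1, 9.48 and 7.87 in WT and 12.7, 10.9 and 9.29 in *hy5*, with overlapping arrays and a log2 difference of 0.26 (interval -0.08 to 0.60). Its other 5 probes gave 0.48 to 0.77, each with all *hy5* arrays above WT, and the mean of its 6 probes was 0.58, still under 2-fold. *HIRD11* (AT1G54410), a histidine-rich dehydrin that binds metal ions, read 10.9, 12.2 and 11.1 in WT and 9.32, 8.01 and 6.71 in *hy5*. All *hy5* arrays were below WT, at a log2 difference of -0.52 (interval -0.83 to -0.21), under the 2-fold limit. *LTI30* (AT3G50970), a cold-induced dehydrin that holds to membranes, read 0.177, 0.192 and 0.216 in WT and 0.150, 0.118 and 0.0820 in *hy5*. It was likewise lower on every *hy5* array, by less than 2-fold (-0.78, interval -1.27 to -0.29). AT4G38410, a dehydrin gene of no assigned type, had a difference of -0.49.

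**Figure D2:**
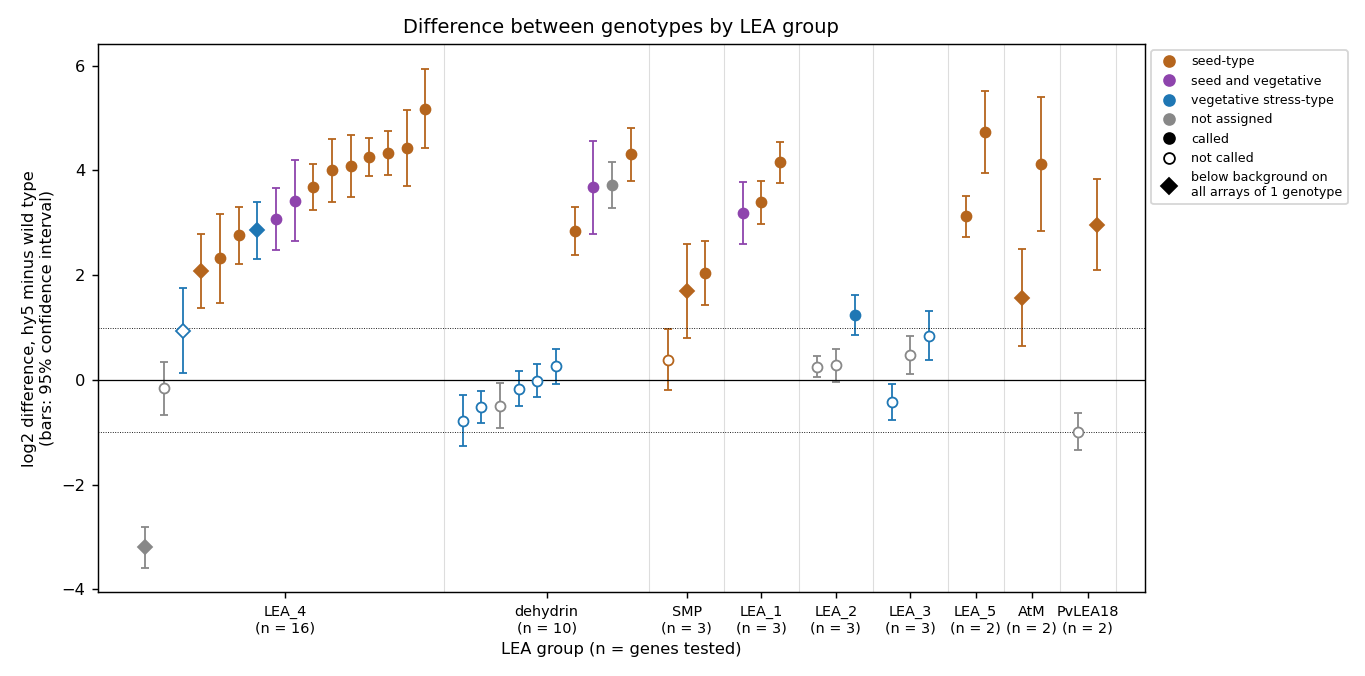
Log2 difference (*hy5* minus WT, y axis) of each gene compared with its 95% confidence interval, by LEA group; color gives the type, filled points were called, diamonds were below background on all arrays of 1 genotype, and dotted lines mark 2-fold. Seed-type genes of LEA_4 lie at 2.07 to 5.18, while the vegetative dehydrins lie between -0.78 and 0.26 at the brightest probe of each gene.

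COR15A and COR15B are paired proteins of the chloroplast stroma that guard its membranes in freezing. Neither was well above background on any WT array. *COR15B* (AT2G42530) read 0.00404, 0.00309 and 0.00615 in WT and 0.0326, 0.0326 and 0.0274 in *hy5*. The *hy5* arrays were close together and above WT, with a measured log2 difference of 2.86 (SE 0.233, limma adjusted p = 1.0e-04). The rise of *COR15B* was 2.11-fold against the WT limit. *COR15A* (AT2G42540) read 0.00527, 0.0107 and 0.0120 in WT and 0.0203, 0.0208 and 0.0114 in *hy5*. Its genotypes overlapped through *hy5* replicate 3, and it was not called. *COR15A* had a measured difference of 0.94 (SE 0.350, limma adjusted p = 0.054) and a rise of 1.16-fold against the WT limit. It was called without WT replicate 3 (1.17) or without *hy5* replicate 3 (1.23), and after quantile normalization (1.15) or cyclic loess (1.29). With normexp both turned negative, to -0.40 for *COR15B* and -0.56 for *COR15A*. Normexp lowers the difference of dim genes through its equal offset, so these values cannot decide the direction of the pair. The common floor adds no offset, and with it *COR15B* was at 0.78 and no longer called, and *COR15A* was at 0.13. As close copies, *COR15A* and *COR15B* may also share probe signal.

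The remaining stress-type genes were well above background in both genotypes. *LEA14* (AT1G01470), an atypical, folded LEA protein of group LEA_2, read 0.967, 1.04 and 0.853 in WT and 2.07, 2.86 and 1.91 in *hy5*. It was apart on all arrays, at a log2 difference of 1.24 (SE 0.162), and was the called member nearest to the 2-fold limit. *DI21* (AT4G15910), a drought-induced gene of group LEA_3, read 5.73, 4.87 and 5.74 in WT and 7.97, 13.5 and 8.66 in *hy5*. All *hy5* arrays were higher, replicate 2 most of all, but the difference of 0.85 (interval 0.39 to 1.31) stayed under 2-fold. *SAG21* (AT4G02380), a mitochondrial protein linked to senescence and oxidative stress, read 55.6, 44.4 and 47.6 in WT and 32.6, 44.5 and 33.4 in *hy5*. The genotypes met at WT replicate 2 and *hy5* replicate 2, and the log2 difference was -0.43 (interval -0.77 to -0.08). A second *SAG21* probe of similar brightness gave -0.03, and the mean of its probes was -0.23. *LEA3* (AT1G02820), the third member of group LEA_3 compared and of no assigned type, had a difference of 0.48. In group LEA_2, AT2G44060 read 7.96, 8.56 and 8.62 in WT and 10.4, 9.77 and 9.72 in *hy5*, a log2 difference of 0.25 (interval 0.05 to 0.45), and AT2G46140 had 0.28. Both genes are of no assigned type and were far under the 2-fold limit, and in AT2G44060 every *hy5* array was above WT.

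Seed maturation proteins (SMP) are known from the dry seed, and 3 of the 6 loci of this group were compared. *RAB28* (AT1G03120), which responds to abscisic acid in embryos, read 0.0600, 0.100 and 0.0525 in WT and 0.0958, 0.103 and 0.0717 in *hy5*. It was the single seed-type gene compared that was not called, with overlapping arrays and a log2 difference of 0.39 (interval -0.20 to 0.97). AT3G22490 read 0.0122, 0.0202 and 0.0164 in WT, of which 2 arrays were well above background, and 0.0713, 0.0873 and 0.0461 in *hy5*. The arrays did not overlap, and the log2 difference was 2.05 (SE 0.263). *ATECP31* (AT3G22500) read 0.00723, 0.00343 and 0.00284 in WT, never well above background, and 0.0193, 0.0137 and 0.00915 in *hy5*. Its measured log2 difference was 1.70 (SE 0.384, limma adjusted p = 0.0078), but its *hy5* mean did not exceed the lowest measurable signal of WT, so no fold can be given. With normexp AT3G22490 stood at -0.0040 and *ATECP31* at -0.70, and both calls ended. With the common floor *ATECP31* was at 0.034 and not called, while AT3G22490 was at 1.82 and still called. AT5G27980, AT5G53260 and AT5G53270, the other 3 SMP loci, had no array well above background.

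Group PvLEA18, named after a bean protein, split in 2 directions. AT2G23110, treated as seed-type, read 0.00443, 0.00547 and 0.0120 in WT, never well above background, and 0.0546, 0.0667 and 0.0382 in *hy5*. The arrays were apart, with a measured log2 difference of 2.97 (SE 0.371, limma adjusted p = 5.9e-04) and a rise of 3.56-fold against the WT limit. With the common floor the log2 difference of AT2G23110 was 1.53, but with normexp it was -0.099. AT2G23120 read 1.80, 1.90 and 1.63 in WT and 1.09, 0.908 and 0.724 in *hy5*. Every *hy5* array was lower, at a log2 difference of -0.99 (interval -1.35 to -0.63), just short of 2-fold. It was called lower without WT replicate 3 (-1.05), without *hy5* replicate 1 (-1.13) and with the mean of its probes (-1.06).

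Among the LEA_4 loci of no assigned type, AT2G03850 read 0.250, 0.318 and 0.240 in WT and 0.318, 0.242 and 0.177 in *hy5*, overlapping, with a log2 difference of -0.16 (interval -0.67 to 0.34). *UNE15* (AT4G13560), named after a mutant with unfertilized embryo sacs, was the only member called lower. Its relative signal was 0.0413, 0.0426 and 0.0477 in WT and 0.00370, 0.00572 and 0.00515 in *hy5*, where no array was well above background. The WT arrays were close together and all above *hy5*, with a measured log2 difference of -3.20 (SE 0.166, limma adjusted p = 2.0e-05). With the *hy5* signals of *UNE15* raised to the lowest signal well above background on each array, WT was 7.73-fold higher, which is not a strict minimum. With the common floor the log2 difference was -1.28, and with normexp -1.22. The gene table also lists this locus under names of a malic enzyme, so what its probe reports is uncertain. AT2G03740, AT2G33690, AT3G53770 and AT4G13230 were each well above background on 1 *hy5* array and no WT array, and were not compared.

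Several members lie beside each other on a chromosome, which allowed the members of a pair to be set against each other on the same arrays. *LTI30* and *XERO1* are adjacent dehydrin genes on chromosome 3, and their log2 differences of -0.78 and 2.84 were 3.63 apart. Over all pairs of a *hy5* with a WT array, the difference of *LTI30* minus that of *XERO1* ran from -4.23 to -2.74. AT2G23110 and AT2G23120, adjacent on chromosome 2, were 3.95 apart (2.77 to 4.90 over pairs of arrays). *M17* and *M10*, with 1 gene between them, were 2.56 apart (1.31 to 4.06), and the adjacent *COR15B* and *COR15A* 1.91 apart (1.03 to 3.07). *COR15A* and AT2G42560 differed by -1.38 (-2.49 to -0.68). *COR47* and *ERD10*, adjacent on chromosome 1, differed by -0.16 (-0.21 to -0.11), which turned to 0.27 with the mean of each gene's probes. AT3G22490 and *ATECP31* differed by 0.35 (-0.67 to 1.91). A stress-type dehydrin that was not called stood next to a seed-type one that rose. The adjacent stress-type dehydrins *COR47* and *ERD10* were both not called. Except in *LTI30* with *XERO1* and *COR47* with *ERD10*, each pair has a gene that missed the background limit on at least 1 WT array. With 3 arrays a genotype, a two-sided exact permutation test cannot go below p = 0.1, which 6 of the 7 pairs reached (adjusted p = 0.117), the last pair standing at 0.8, so no pair passed and the differences are a description.

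**Figure D3:**
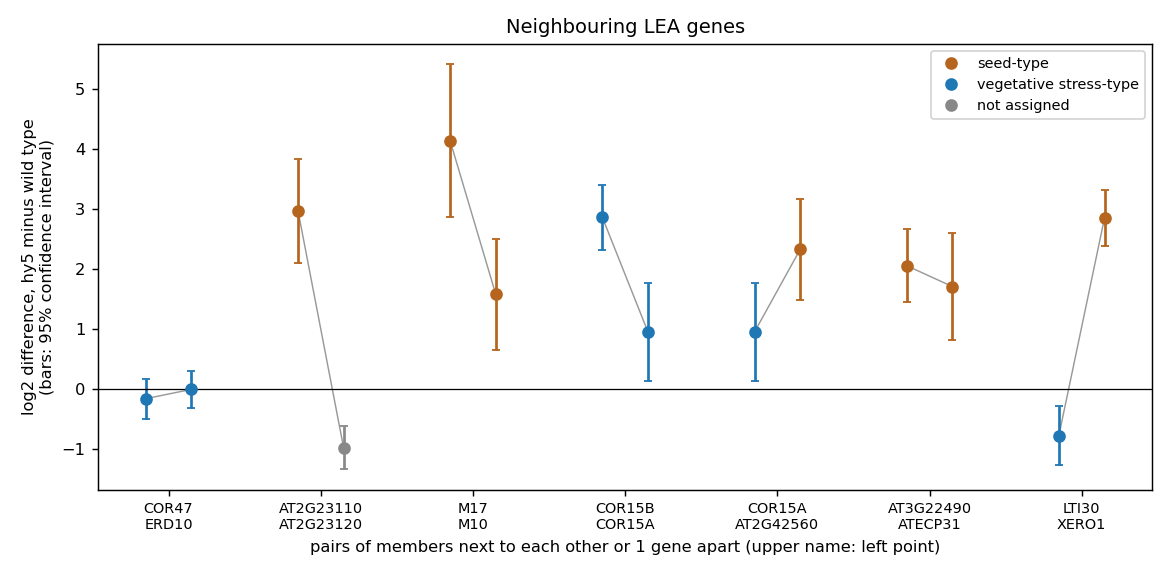
Log2 difference (*hy5* minus WT, y axis) with its 95% confidence interval for both genes of 7 pairs that are adjacent or 1 gene apart (x axis; the upper name is the left point), colored by type. *LTI30* at -0.78 and *XERO1* at 2.84 are on opposite sides of 0, as are AT2G23110 at 2.97 and AT2G23120 at -0.99.

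The members also varied together among arrays of 1 genotype, a feature that did not enter the choice of the family. In WT, replicate 1 was the highest array for 16 of the 22 seed-type genes (72.7%), against 31.8% of all genes compared, and lay a median of 0.48 on the log2 scale above the mean of the other WT arrays. For all 4 genes known from both seeds and leaves it was also the highest, by a median of 0.95. Of the 22 seed-type genes, 4 were not well above background on any WT array, so their order among WT arrays is uncertain. The 17 seed-type genes that passed on all 6 arrays were not counted apart. Among the *hy5* arrays, replicate 3 was the lowest for 19 of the 22 seed-type genes (86.4%) and for 8 of the 10 vegetative stress-type genes, against 29.3% of all genes. Relative to each gene's WT mean, the median seed-type gene stood at 0.32, -0.22 and -0.20 on the WT arrays and at 3.85, 3.49 and 3.06 on the *hy5* arrays. The vegetative stress-type genes stood at 0.034, 0.032 and -0.042 in WT and at 0.37, 0.083 and -0.085 in *hy5*. For the seed-type median the gap between genotypes was wider than the spread within either, while the stress-type median in *hy5* ranged around its WT values. Without *hy5* replicate 1 the stress-type median was -0.0011. The genes of a type share each array's RNA, labeling and scan, and the part of these in the shared movement was not tested.

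**Figure D4:**
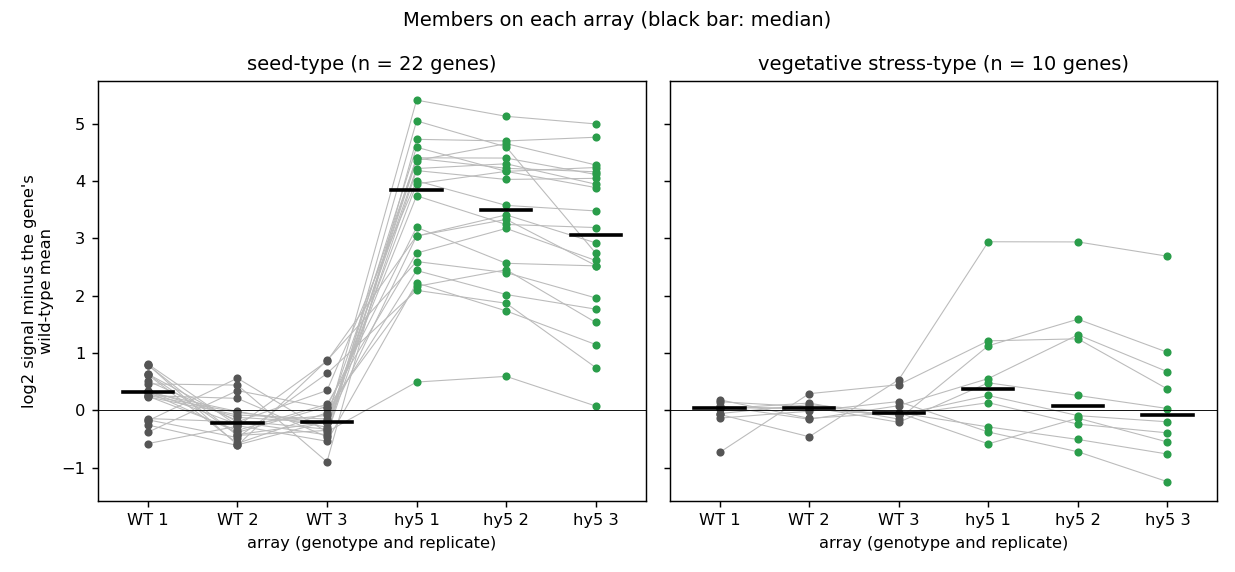
Log2 relative signal minus the gene's WT mean (y axis) on each of the 6 arrays (x axis) for the 22 seed-type and 10 vegetative stress-type genes; a line joins the points of 1 gene and a black bar is the median. The seed-type bars step from 0.32, -0.22 and -0.20 in WT to 3.85, 3.49 and 3.06 in *hy5*, and the stress-type bars stay between -0.085 and 0.37.

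Regulators of the family were read on the same arrays. Of 14 regulators of seed maturation genes, 10 were compared, 3 were called higher and 7 were not called, with a median log2 difference of 0.15 (range -0.85 to 5.33), and with normexp -0.24, at 3 called higher. The 3 were the factors of the *ABSCISIC ACID INSENSITIVE* genes, which act on LEA promoters in seeds. *ABI5*, a bZIP factor known to bind the promoters of the Em genes, read 0.0924, 0.131 and 0.125 in WT and 0.548, 0.485 and 0.537 in *hy5* (log2 difference 2.19, limma adjusted p = 4.9e-05). *ABI4*, an AP2-type factor, read 0.0251, 0.00932 and 0.0170 in WT and 0.555, 0.570 and 0.818 in *hy5* (5.33, limma adjusted p = 4.1e-05). Its WT replicate 2 was not well above background, so the size of this difference is uncertain, and it was 2.60 with normexp. *ABI3*, a B3-type factor of embryo maturation, read 0.162, 0.172 and 0.180 in WT and 0.554, 0.433 and 0.467 in *hy5* (1.5, limma adjusted p = 7.9e-05). For each of the 3 all *hy5* arrays lay above all WT arrays, as for 30.8% of all genes compared. *ABI4* was highest in WT replicate 1 and in *hy5* replicate 3, *ABI5* in WT replicate 2 and *hy5* replicate 1, and *ABI3* in WT replicate 3 and *hy5* replicate 1. *LEC2*, *FUS3*, *bZIP67* and *L1L*, which act in the developing embryo, could not be compared, and *LEC1* was not well above background on any WT array and stood at 0.19. Of the 10 seed regulators compared, 6 had a positive difference and 4 a negative one. Among the latter, *bZIP10* at -0.85 and *DOG1* at -0.55 were lower on every *hy5* array, by less than 2-fold. Of 10 regulators of stress genes in leaves and roots, 8 were compared and 1 was called, *DREB2A*, a drought and heat factor, with a log2 difference of 1.08 (limma adjusted p = 0.0011), which fell under 2-fold with normexp (0.86) or the mean of its probes (0.99). The median of the 8 was 0.048, and -0.30 with normexp. The bZIP factors of the abscisic acid response went both ways and stayed under 2-fold, *ABF1* at 0.65, *ABF3* at -0.29, *ABF4* at -0.66 and *ABF2* at -0.75. *CBF2*, a cold factor, was at 0.22.

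As to markers of seed and seedling tissue, the summed relative signal of the 12 seed reserve genes was 0.714 to 1.57 in WT and 4.64 to 12.6 in *hy5*. It was lowest in *hy5* replicate 3, as most LEA genes were. In WT the sum was highest in replicate 2, while the median log2 signal of the 12 genes was highest in replicate 1, at -4.46 against -4.73 and -4.96. The summed signal of 8 genes of green seedlings, encoding Rubisco, light-harvesting and photosystem subunits, was 3011 to 3367 in WT and 2216 to 2436 in *hy5*. All 8 were lower on every *hy5* array, as were 31.7% of all genes compared. The median log2 difference of the 8 was -0.47 (range -0.66 to -0.33), and none was called because each change was under 2-fold (limma adjusted p 0.00077 to 0.026). The part of seed reserve transcripts and of green tissue in the LEA differences was not tested.

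**Figure D5:**
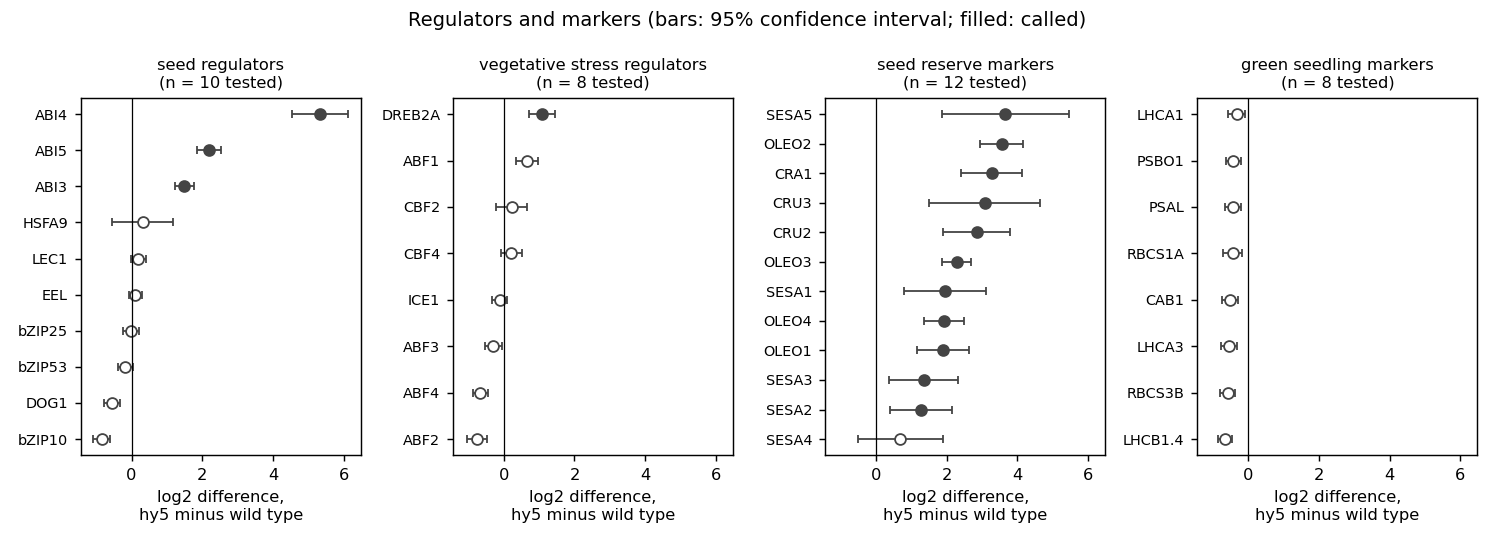
Log2 difference (*hy5* minus WT, x axis) with its 95% confidence interval for the regulators and markers compared, 1 panel a list; filled points were called. *ABI4*, *ABI5* and *ABI3* lie at 5.33, 2.19 and 1.5 above the other seed regulators, the seed reserve genes lie at 0.69 to 3.66, and the green seedling genes at -0.66 to -0.33.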

How the data were processed

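The authors deposited the scanner output of 6 arrays (Agilent Feature Extraction 10.7.3, from the processing notes), whose values are intensities on a linear scale after background subtraction, and a normalized table, which the authors made by dividing the intensities by each array's 75th percentile and which holds a ratio. Here the log2 processed signal of the scanner files was set relative to that percentile over non-control spots, spots of a probe were averaged and 30 probes with outlier flags left out. A gene was tested when all 3 arrays of 1 genotype were well above background, by its brightest such probe. The test was limma 3.58.1 (R 4.3.3), two-sided, with Benjamini-Hochberg adjustment over 21590 genes. A fold against the limit raises signals of the dimmer genotype that lie under the lowest signal well above background on their array to that signal. That lowest signal is taken over all probes of an array, so the fold is not a strict minimum for a given probe. The common floor is the highest of these lowest signals, used on every array without the filter on dim probes. The script was tested on simulated data. The number of arrays limits the precision.

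The members and lists were chosen with earlier results of these data known. Types and LEA groups came from background knowledge, and the regulator and marker lists hold 14, 10, 12 and 8 genes. Values on every array are given for the members with the largest and smallest difference in each LEA group, for 11 well-known genes and for the 3 members nearest to the 2-fold limit on either side. *UNE15* was added after its value was seen. Names and neighbors are those of the TAIR10.1 table (51 of 51 loci matched), whose coordinates were not used since the array predates it. Protein and promoter sequences were not analysed here. Alternatives covered background correction, normalization, the treatment of dim probes and of genes with several probes, the deposited values, the variance prior, the t-test of the methods, blocking by replicate number and leaving out single arrays. Same-numbered arrays did not deviate together (correlations -0.025, -0.087 and 0.085), so the main comparison has no block.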

Additional observations from a re-analysis of the deposited data

How the results depend on the processing

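The counts of 28 members higher and 1 lower were the same with median scaling, an intensity trend in the prior, the deposited table and a replicate block. Of the called rises, normexp kept 21, the filter on all 6 arrays 22, the common floor 25, the methods' t-test 25, and the same test after Benjamini-Hochberg adjustment 14. The common floor ended the calls of *COR15B*, *M10* and *ATECP31*. The filter on all 6 arrays left 0 lower, and the mean of a gene's probes gave 2. The seed-type median of 3.54 was 2.21 with normexp, 3.12 without a filter, 3.12 with a common floor and 4.09 on all 6 arrays. The stress-type median of 0.12 was -0.040 with normexp, -0.090 on all 6 arrays and 0.41 with the mean of probes. Their difference of 3.42 was 2.25, 3.00 without a filter, 3.06 with the floor, 4.18 on all 6 arrays and 2.85 with the mean of probes. Over all genes the median was -0.20 with normexp and -0.18 without a filter.

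With 1 array left out at a time, 27 to 29 members were higher and 1 to 2 lower, with medians of 3.37 to 3.64 (seed-type) and -0.0011 to 0.23 (stress-type) and a difference of 3.32 to 3.58.

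Of the 44 members, 9 changed sign with normexp, namely AT2G18340 (-0.11), AT3G22490 (-0.0040), AT2G23110 (-0.099), *SAG21* (0.082), *RAB28* (-0.19), *M10* (-0.59), *COR15A* (-0.56), *COR15B* (-0.40) and *ATECP31* (-0.70). Normexp lowers the difference of dim genes through its equal offset, so for members near background this turn cannot decide a direction. *COR47* was at 0.25 with the mean of its probes. Among the genes given array by array, *ERD10* was at 0.00057 with the t-test and at -0.15 to 0.083 with 1 array left out, and AT2G03850 at -0.37 to 0.056. What else lies behind these changes was not tested.

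The replicate block changed no call among members, with 28 higher, 1 lower, medians of 3.54 and 0.12 and a difference of 3.42. A slide block was not run because each genotype has its own slide. Members near background in WT are limited by signal, and all by the number of arrays.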
